A study of Mus musculus with 6 samples.

Results

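The antioxidant genes Nqo1, Gclm, Gclc, Srxn1, Txnrd1, Slc7a11, Gpx2, Gstm1, Gstm5 and Gstp1 were followed by symbol through single-cell RNA profiles of mouse colonic tumours, 10 genes of the 31053 features counted. Each was read in epithelial, neutrophil and T cells of 6 tumour libraries, 3 of the Apc ICI and 3 of the AOM PN group. In Apc ICI mice (VilCreER Apcfl/fl), a tamoxifen-inducible Cre driven by the villin promoter, which is active in gut epithelium, acts on floxed alleles of Apc, the gene for a restraint on Wnt signals. It was induced by 1 injection of 70 µl of 100 µM 4-OH tamoxifen into the submucosa of the colon. AOM PN mice (VilcreER P53fl/fl Notch1Tg) carry the same kind of Cre with floxed p53 and a Notch1 transgene. They received 2 mg of tamoxifen into the peritoneum and, from day 4, the colon carcinogen azoxymethane (AOM) at 10 mg/kg each week for 6 weeks. All mice were male, and whole tumours were taken at the clinical endpoint, dissociated and freed of dead cells by sorting on DAPI before 3′ droplet libraries were made. The targeted genes, the carcinogen and the route of induction differed together between the groups and cannot be told apart. The labels give no ages and do not say whether the libraries came from separate animals, so p-values reflect only how far these libraries spread, which may be technical.

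NRF2 (Nfe2l2) is the transcription factor through which many cells answer oxidants and reactive foreign compounds. Its partner KEAP1 holds it for degradation through a CUL3 ligase until reactive molecules modify KEAP1, after which NRF2 enters the nucleus, pairs with small MAF proteins and binds antioxidant response elements. Its known targets raise the supply of glutathione, a small thiol made from glutamate, cysteine and glycine, keep thioredoxin reduced, and join glutathione to reactive compounds or reduce them so that they can be exported. In the colon this system stands between the epithelium and luminal and dietary toxicants, and in neutrophils between the cell and the oxidants it makes itself.

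The core letters of the antioxidant response element, TGACNNNGC, were searched on either strand from 250 bases before to 50 bases after each start site in RefSeq promoters (GRCm38.p6). Of the 10 genes, 9 had a promoter entry, all but Gclc, and 4 of these held the core: Gclm, Srxn1, Txnrd1 (at the second of its 3 listed start sites) and Gstm5. Counted in the same way, by gene over all its listed promoters of this length, the core was found for 14% of genes, 3781 of 27025. The stretches are shown for the 4 genes that held it. Of these, Gclm, Srxn1 and Gstm5 fell in neutrophil-like cells and Txnrd1 did not pass the test there, while Nqo1 and Gstm1, with no core in the window, fell there as well. Capitals mark the 9 letters of the core or of its reverse complement, and each stretch is read 5′ to 3′ on the plus strand. No core match overlapped a match to the AP-1 letters TGANTCA, which were found in 7.81% of promoters.
Gclm, chr3:122245413-122245441: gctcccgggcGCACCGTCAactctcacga
Srxn1, chr2:152105542-152105570: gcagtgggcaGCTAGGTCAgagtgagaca
Txnrd1, chr10:82859104-82859132: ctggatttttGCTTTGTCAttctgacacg
Gstm5, chr3:107895802-107895830: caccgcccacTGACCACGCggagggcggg
In Gclm, Srxn1 and Txnrd1 the core stands on the minus strand, and in Gstm5 on the plus strand. The other 5 searched genes, Nqo1, Slc7a11, Gpx2, Gstm1 and Gstp1, held no such letters within this window.

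The libraries held 59309093 to 60075436 molecules (unique molecular identifiers, UMIs) in Apc ICI against 87107277 to 98583066 in AOM PN. Haemoglobin took 21.4% to 61.4% of them in Apc ICI against 1.87% to 29.0% in AOM PN. Pairs of libraries shared 4 to 34 cell barcodes. Classes were named from marker genes: the 12 epithelial-like sub-clusters each showed 5 to 9 of 9 markers, the 6 neutrophil-like clusters 9 of 9, and the 4 T/NK-like clusters 6 to 9 of 11. Replicates 1, 2 and 3 of Apc ICI held 388, 731 and 461 epithelial-like cells with 24565330 UMIs in all, and those of AOM PN held 321, 225 and 89 with 3810767. Neutrophil-like cells numbered 6807 in Apc ICI against 9713 in AOM PN, with 804 and 3803 of the T/NK-like kind. Clusters with epithelial markers but low depth and no marker among their 10 leading genes were left unnamed. They held 23.3% of epithelial-marked cells in Apc ICI against 67.3% in AOM PN. Sub-cluster 3 was shallow too, at 0.267 of its libraries' median depth, but was named, with Lgals4 and Krt19 among its leading genes. The doublet filter also removed unequally: with doublets kept, the epithelial-like sums held 1.66 times the UMIs in Apc ICI against 5.12 times in AOM PN. Epithelial-like and neutrophil-like cells came largely from different clusters in the 2 groups. In Apc ICI, epithelial-like cells were mostly in sub-clusters 2 (24.4%), 5 (20.6%) and 6 (12.6%), and in AOM PN in sub-cluster 3 (52.6%). Neutrophil-like cells were mostly in clusters 2 (45.2%) and 8 (30.7%) in Apc ICI, and in clusters 0 (46.0%), 5 (30.9%) and 7 (17.1%) in AOM PN. T/NK-like cells filled the same 4 clusters in other proportions: clusters 10, 20, 16 and 14 held 49.3%, 27.2%, 11.9% and 11.6% of them in Apc ICI against 36.8%, 10.2%, 24.4% and 28.6% in AOM PN. Of the genes targeted in the mice, epithelial-like Trp53 stood at 141 ± 9.66 CPM (SD, n = 3) in Apc ICI against 58.5 ± 18.3 in AOM PN, a log2 change of -1.18 (edgeR quasi-likelihood test, Benjamini-Hochberg adjusted p = 0.0171), while Apc (log2 -0.35, adjusted p = 0.492) and Notch1 (log2 0.33, adjusted p = 0.522) did not pass the test. The labels do not say which exons are deleted, so these 3′ counts are no check on deletion.

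In epithelial-like cells of AOM PN tumours, Gpx2 and Nqo1 were higher and Gstm5, Slc7a11 and Gstm1 were lower than in Apc ICI. In neutrophil-like cells 6 genes were lower in AOM PN (Gstm1, Nqo1, Gstm5, Gclc, Gclm and Srxn1) and Gpx2 was higher. The low neutrophil-like levels of Gstm5 and Gpx2 are set beside the amount that epithelial RNA could give further below. In T/NK-like cells Gstm5 was the 1 member called, and it fell. Levels are CPM (counts-per-million), UMIs relative to the class sum after TMM scaling, and changes are on the log2 scale, positive where AOM PN was higher, with standard errors (SE). All adjusted p-values are from edgeR's quasi-likelihood test with Benjamini-Hochberg adjustment over every gene tested in the class, called below 0.05. By this rule 5 of 10 members were called in epithelial-like cells against 18.1% of 11402 genes, 7 of 10 in neutrophil-like cells against 32.5% of 9436, and 1 of the 9 tested in T/NK-like cells against 2.61% of 10306 (1.25% higher and 1.36% lower). Groups did not overlap for 6 of 10 members in epithelial-like cells, against 34.5% of genes, for 7 of 10 in neutrophil-like cells, against 48.9%, 6 of them lower against 26.9%, and for 3 of 9 in T/NK-like cells, against 27.1%. The members' median change was 0.48 in epithelial-like, -1.26 in neutrophil-like and -0.10 in T/NK-like cells, beside medians over all genes of -0.04, -0.05 and -0.0035. Nqo1 did not pass the filter on low counts in T/NK-like cells, with 2 UMIs in Apc ICI against 11 in AOM PN.

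**Figure D1:**
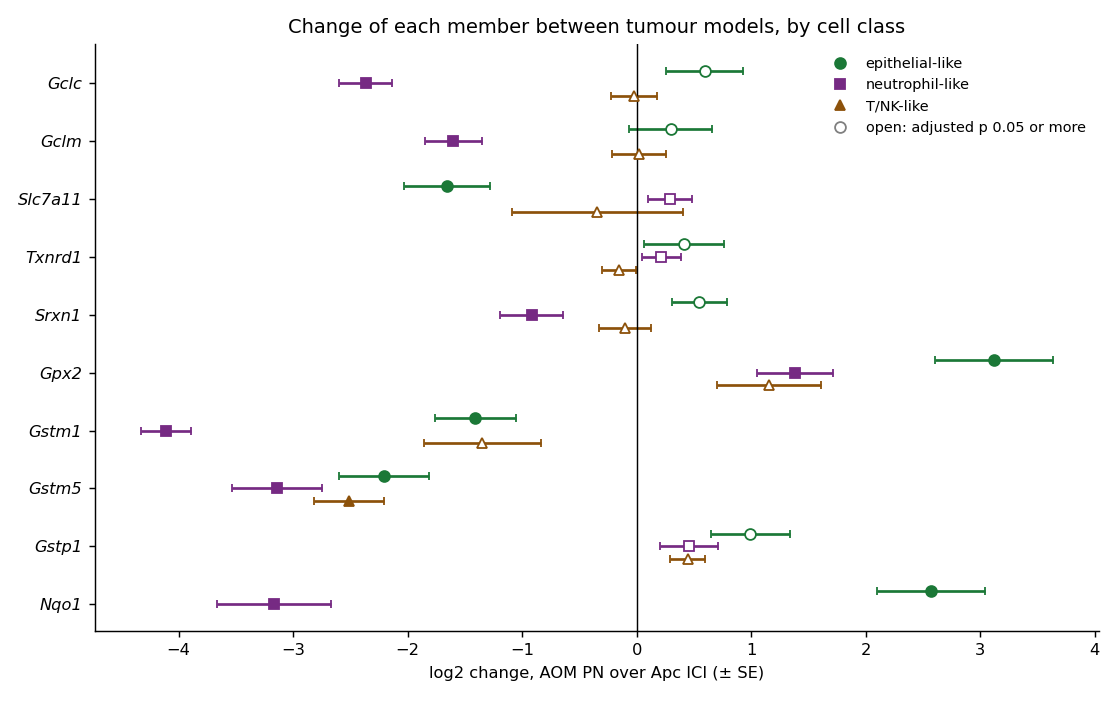
Log2 change of each of the 10 genes, AOM PN over Apc ICI, in epithelial-, neutrophil- and T/NK-like sums of 3 libraries per group; bars are standard errors and filled points have an adjusted p below 0.05. Gpx2 lies above 0 in all 3 classes, Nqo1 is at 2.57 in epithelial-like and -3.17 in neutrophil-like cells, and Gstm5 lies at -2.21, -3.14 and -2.51 in the 3 classes.

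Glutathione synthesis begins with glutamate-cysteine ligase, whose catalytic subunit is Gclc (chromosome 9, 77754535 to 77794485, plus strand, GRCm38) and whose modifier subunit is Gclm (chromosome 3, 122245557 to 122270732, plus strand). In neutrophil-like cells Gclc stood at 39.3, 49.8 and 30.9 CPM in the Apc ICI libraries against 6.46, 7.41 and 9.43 in those of AOM PN. Every Apc ICI library was above every AOM PN library, and Gclc fell by 2.37 on the log2 scale (SE 0.23, adjusted p = 0.000299). Neutrophil-like Gclm was 163, 204 and 180 CPM in Apc ICI against 79.2, 38.6 and 63.0 in AOM PN, again without overlap, and fell by 1.60 (SE 0.25, adjusted p = 0.00277). In epithelial-like cells Gclc was 20.9, 32.6 and 33.8 CPM against 28.5, 44.0 and 74.4, a log2 change of 0.60 (SE 0.34, adjusted p = 0.267), and the ranges overlapped. Epithelial-like Gclm was 99.4, 130 and 111 CPM against 193, 148 and 60.5, with AOM PN 3 below every Apc ICI library and the other AOM PN libraries above them (log2 0.30, SE 0.36, adjusted p = 0.638). These 2 epithelial-like values moved with the choice of cells. With doublets kept, Gclm was called at 0.48 (adjusted p = 0.0197), and with the shallow epithelial clusters counted Gclc was called at 1.12 (adjusted p = 0.00951). In T/NK-like cells Gclc ran from 22.8 to 37.6 CPM and Gclm from 22.9 to 38.4 over all 6 libraries, with log2 changes of -0.02 and 0.02. The fall of both subunits in neutrophil-like cells differed from their change in T/NK-like cells, by -2.40 for Gclc (SE 0.26, adjusted p = 0.000158) and -1.65 for Gclm (SE 0.28, adjusted p = 0.00307). Of all genes, 14.2% had such a difference called. On the scale with haemoglobin left out, erythroid-like cells had far higher Gclm levels than any other class, as given below. At the share of erythroid markers measured in the neutrophil-like sums, their Gclm would add 3.57 to 24.5 CPM in Apc ICI against 1.67 to 11.3 in AOM PN, beside measured levels on the same scale of 271 to 352 and 71.1 to 137. In the epithelial-like sums it would add 1.70, 3.58 and 4.95 CPM against 32.9, 22.2 and 10.3, beside measured levels of 61.5, 82.8 and 65.6 against 106, 88.3 and 35, and its part in epithelial-like Gclm was not tested.

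Cystine, the oxidised dimer of cysteine, enters the cell through the exchanger whose light chain is Slc7a11 (chromosome 3, 49892526 to 50443614, minus strand). Neutrophil-like cells held high levels in both groups, 1953, 2688 and 2130 CPM in Apc ICI against 2636, 2803 and 2871 in AOM PN. The ranges overlapped, and the log2 change of 0.30 did not pass the test (SE 0.19, adjusted p = 0.261). Epithelial-like cells held 29.0, 38.4 and 41.5 CPM in Apc ICI against 4.07, 13.9 and 18.6 in AOM PN, so that all AOM PN libraries were lower. Slc7a11 fell there by 1.65 (SE 0.38, adjusted p = 0.0139), a change resting on 950 Apc ICI and 42 AOM PN UMIs. Without AOM PN 2 it was no longer called (adjusted p = 0.0650), and with doublets kept the change was -0.28 (adjusted p = 0.322). After thinning it was -1.25 (adjusted p = 0.180). At the share of neutrophil markers found in the epithelial-like sums, neutrophil Slc7a11 would give 2.18, 8.90 and 3.80 CPM in Apc ICI against 4.96, 9.25 and 7.86 in AOM PN. Measured levels on that scale, one shared by all classes, were 17.9, 24.4 and 24.5 CPM against 2.25, 8.26 and 10.8, so the AOM PN levels stood at about the amount this share would give. T/NK-like levels were uneven, 30.3, 71.7 and 5.17 CPM in Apc ICI against 11.9, 62.5 and 15.4 in AOM PN (log2 -0.34, SE 0.75, adjusted p = 0.844). The libraries high in T/NK-like Slc7a11, replicate 2 of each group, were also those where the neutrophil-marker share would give most, Apc ICI 2 at 40.3 CPM and AOM PN 2 at 36.6, against 3.02 to 19.3 in the others; its part in those levels was not tested. The epithelial-like change was lower than the neutrophil-like change by 2.30 (SE 0.53, adjusted p = 0.00994), a difference of a kind called in 9.39% of genes, and not called after thinning (adjusted p = 0.155), with doublets kept (-0.57, adjusted p = 0.0746) or without AOM PN 1 (0.0756) or AOM PN 2 (0.0572).

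Thioredoxin reductase 1 (Txnrd1, chromosome 10, 82833951 to 82897712, plus strand) returns oxidised thioredoxin to its reduced form, and sulfiredoxin (Srxn1, chromosome 2, 152105516 to 152111376, plus strand) repairs over-oxidised peroxiredoxins. Txnrd1 was not called in any of the 3 classes. Its neutrophil-like levels were 489, 619 and 489 CPM in Apc ICI against 609, 689 and 559 in AOM PN (log2 0.22, SE 0.17, adjusted p = 0.360). Its epithelial-like levels were 146, 218 and 178 CPM against 179, 344 and 191 (log2 0.42, SE 0.35, adjusted p = 0.474), and its T/NK-like levels lay between 92.0 and 134 CPM in all 6 libraries. Srxn1 in neutrophil-like cells was 114, 128 and 112 CPM in Apc ICI against 95, 42.2 and 51.3 in AOM PN. The groups did not overlap, AOM PN 1 lying nearest to Apc ICI, and Srxn1 fell by 0.92 (SE 0.28, adjusted p = 0.0328). This call was the least firm of the 7: leaving out any 1 library other than AOM PN 1 ended it, with adjusted p from 0.0553 to 0.0989. Epithelial-like Srxn1 was 16.5, 18.6 and 18.3 CPM against 21.7, 27.0 and 32.6, without overlap but not called (log2 0.55, SE 0.24, adjusted p = 0.149). T/NK-like Srxn1 ran from 26.2 to 47.6 CPM with no separation of the groups (log2 -0.10).

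Glutathione peroxidase 2 (Gpx2, chromosome 12, 76792333 to 76795554, minus strand) is the glutathione-dependent peroxidase of the gut epithelium. Epithelial-like Gpx2 was 244, 543 and 600 CPM in the Apc ICI libraries against 5283, 4382 and 2396 in those of AOM PN. The lowest AOM PN library was above the highest Apc ICI library. The fitted change was 8.70-fold, 3.12 on the log2 scale (SE 0.51, adjusted p = 0.00276), the largest rise among the 10 genes in this class. Over pooled cells, as a description, Gpx2 was 811 and 1397 CPM in AOM PN cells of sub-clusters 0 and 4, left unnamed at low depth. In Apc ICI cells of the unnamed sub-clusters 0, 1 and 4 Gpx2 was 304, 401 and 1093 CPM. The share of epithelial-like cells with a Gpx2 UMI, after each cell was thinned to 1500 UMIs, was 26.8%, 32.5% and 37.3% in Apc ICI against 89.3%, 80.3% and 65.2% in AOM PN. Cells deep enough to be thinned numbered 317, 633 and 365 against 140, 162 and 46. In T/NK-like cells at the same depth the mean share was 1.26% against 2.08%. Before thinning the epithelial-like share was 60.1%, 67.6% and 58.8% against 86.0%, 82.7% and 70.8%. The thinned shares did not overlap (exact two-sided permutation p = 0.1, the smallest that 3 against 3 allows, and 0.214 after adjustment over 30 shares). In neutrophil-like cells Gpx2 was 7.18, 16.5 and 13.7 CPM in Apc ICI against 46.7, 27.3 and 24.7 in AOM PN, and it rose by 1.38 (SE 0.33, adjusted p = 0.0141). Epithelial markers in the neutrophil-like sums, none of them at 0, summed to 163 to 310 CPM in Apc ICI against 99.9 to 266 in AOM PN, 2.71% to 5.17% and 1.27% to 3.52% of their level in epithelial-like cells. At that share epithelial Gpx2 would give 4.09, 17.9 and 16.6 CPM in Apc ICI against 103, 33.2 and 27.2 in AOM PN, beside measured levels, on the scale shared by all classes, of 12.0, 28.5 and 22.4 and 80.9, 50.3 and 44.9. In neutrophil-like cells without a UMI of Epcam, Krt8, Krt18 or Krt19 the change was 1.32 (adjusted p = 0.0139). The share above also used Cldn7, Cldn3 and Lgals4, and cells with UMIs of those genes stayed in. T/NK-like Gpx2 was 4.87, 8.71 and 6.2 CPM against 22.8, 8.52 and 11 (log2 1.16, SE 0.45, adjusted p = 0.191). There the epithelial share would give 1.45, 5.39 and 4.25 CPM in Apc ICI against 35.7, 8.85 and 9.90 in AOM PN, beside measured levels on that scale of 3.53, 6.21 and 4.33 and 16.5, 6.25 and 8.15. The epithelial-like rise exceeded the neutrophil-like rise by 1.45 (SE 0.42, adjusted p = 0.0327) and the T/NK-like change by 2.10 (SE 0.55, adjusted p = 0.0308), the latter a difference called in 4.72% of genes. Neither difference was called after thinning (adjusted p = 0.215 and 0.385), with the shallow clusters counted (0.229 and 0.105) or without any 1 of AOM PN 2 and the 3 Apc ICI libraries. Of the 90-base words at the end of the Gpx2 transcript 12.4% are shared with the pseudogene Gpx2-ps1, so reads from those stretches cannot be told apart by sequence. Gpx2 also overlaps Fntb on the opposite strand, and whether the counting used strand is not given in the sources used here.

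Glutathione transferases join glutathione to electrophilic compounds. Gstm1 (chromosome 3, 108012255 to 108017973, minus strand) and Gstm5 (chromosome 3, 107895821 to 107898686, plus strand) belong to the mu class, and Gstp1 (chromosome 19, 4035407 to 4037985, minus strand) to the pi class. Neutrophil-like Gstm1 was 64.2, 73.6 and 78.9 CPM in Apc ICI against 2.95, 4.99 and 4.34 in AOM PN. It was 17.3-fold lower in AOM PN, a fall of 4.11 on the log2 scale (SE 0.22, adjusted p = 3e-05), from 1932 UMIs in Apc ICI to 131 in AOM PN. The thinned share of neutrophil-like cells with a Gstm1 UMI was 6.93% in Apc ICI against 0.486% in AOM PN, beside 1.14% and 0.299% of T/NK-like cells. Epithelial-like Gstm1 was 85.9, 117 and 93.6 CPM against 52.9, 36.1 and 9.30, and fell by 1.41 (SE 0.36, adjusted p = 0.0211). This call was lost without AOM PN 2 (adjusted p = 0.166), without Apc ICI 2 (0.0890) and without Apc ICI 3 (0.0560). The fall in neutrophil-like cells was deeper than in epithelial-like cells by 2.34 (SE 0.50, adjusted p = 0.00589) and deeper than the change in T/NK-like cells, the difference there being -2.76 (SE 0.41, adjusted p = 0.00140). T/NK-like Gstm1 was 5.57, 4.02 and 4.14 CPM against 1.05, 3.37 and 1.42, without overlap and not called (log2 -1.35, adjusted p = 0.178). Of its terminal 90-base words 12% are shared with Gstm3 and 2 further loci.

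Gstm5 was lower in AOM PN in every one of the 3 classes. Epithelial-like Gstm5 was 406, 292 and 231 CPM in Apc ICI against 80.0, 76.9 and 32.6 in AOM PN, a fall of 2.21 (SE 0.39, adjusted p = 0.00399). The thinned share of epithelial-like cells with a Gstm5 UMI was 26.4% in Apc ICI against 6.36% in AOM PN. Pooled Gstm5 levels within the epithelial-like sub-clusters found in both groups are given below. T/NK-like Gstm5 was 61.6, 30.8 and 81.7 CPM against 8.76, 9.59 and 11.6, with no overlap, and fell by 2.51 (SE 0.31, adjusted p = 0.0120). Without Apc ICI 1 the adjusted p was 0.0851. By cluster, as a description over pooled cells, Gstm5 was 78.2 CPM in Apc ICI against 11 in AOM PN in T/NK-like cluster 10 and 70.9 against 49.0 in cluster 20, and 9.88 against 1.46 in cluster 14 and 1.76 against 0.507 in cluster 16. Clusters 10 and 20, with the higher levels, held more of the Apc ICI than of the AOM PN cells, by the shares given above, and the part of these shares in the fall was not tested. The epithelial share would give 1.63 to 2.89 CPM of Gstm5 in the T/NK-like sums of Apc ICI and 0.135 to 0.541 in those of AOM PN, beside 22 to 57.0 and 6.35 to 8.59 measured on that scale. In cells that carried a T cell receptor or CD3 UMI the T/NK-like change was -2.52 (adjusted p = 0.0116). Neutrophil-like Gstm5 was low, 2.98, 6.05 and 5.14 CPM in Apc ICI against 0.702, 0.499 and 0.434 in AOM PN, and fell by 3.14 (SE 0.39, adjusted p = 0.00106) on 135 and 16 UMIs. There the epithelial share would give 6.79, 9.59 and 6.37 CPM in Apc ICI against 1.56, 0.583 and 0.370 in AOM PN, about the measured 4.97, 10.4 and 8.44 and 1.22, 0.92 and 0.79. In neutrophil-like cells without a UMI of Epcam, Krt8, Krt18 or Krt19 the change was -3.26 (adjusted p = 0.00135). Cells with UMIs of the other epithelial markers of that share stayed in. The differences between the classes' changes in Gstm5 were not called.

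Gstp1 passed the test in no class. It was 52.6, 47.9 and 51.6 CPM against 128, 117 and 32.6 in epithelial-like cells, with AOM PN 3 below and the other AOM PN libraries above every Apc ICI library (log2 0.99, SE 0.34, adjusted p = 0.0744). With doublets kept this change was called at 1.18 (adjusted p = 0.000112), and without AOM PN 3 at 1.26 (adjusted p = 0.00143). T/NK-like Gstp1 was 63.0, 52.9 and 52.7 CPM against 66.4, 75.3 and 90.4, without overlap (log2 0.44, SE 0.15, adjusted p = 0.138). Neutrophil-like Gstp1 lay between 3.36 and 6.77 CPM in all libraries (log2 0.46, SE 0.25, adjusted p = 0.189). Its terminal words are 69.5% shared with Gstp2 and a pseudogene, so Gstp1 counts are uncertain.

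Nqo1 (chromosome 8, 107388225 to 107403206, minus strand) encodes the quinone reductase that turns quinones into hydroquinones without a radical step, and is a classical NRF2 target. Epithelial-like Nqo1 was 1.82, 4.52 and 2.52 CPM in Apc ICI against 27.1, 12.3 and 23.3 in AOM PN, and rose by 2.57 (SE 0.47, adjusted p = 0.00474) on 90 and 56 UMIs. After thinning the class held too few Nqo1 UMIs to be tested. The low-depth sub-clusters left unnamed had less Nqo1 in AOM PN, as a description over pooled cells. Sub-clusters 0 and 4, with 989 and 298 AOM PN cells, had 2.49 and 3.06 CPM on 4 and 1 UMIs. In Apc ICI cells of the unnamed sub-clusters 0, 1 and 4 Nqo1 was at 0 CPM. Neutrophil-like Nqo1 was 18.7, 30.4 and 16 CPM in Apc ICI against 1.12, 1.28 and 4.99 in AOM PN, and fell by 3.17 (SE 0.50, adjusted p = 0.00279). The groups overlapped in neither class, and the order of the groups was opposite in the 2. The difference between the changes was 5.99 (SE 0.53, adjusted p = 1.04e-06). Thinned to 1500 UMIs, 0.144% of epithelial-like cells carried a Nqo1 UMI in Apc ICI against 3.43% in AOM PN, beside 0.099% and 0.139% of T/NK-like cells. The groups were not separated at other depths: the epithelial-like share was 0.0995% against 0.719% thinned to 1000 UMIs (exact permutation p = 0.4) and 2.85% against 6.21% without thinning (exact permutation p = 0.3). In neutrophil-like cells the thinned share was 3.13% in Apc ICI against 0.403% in AOM PN.

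**Figure D2:**
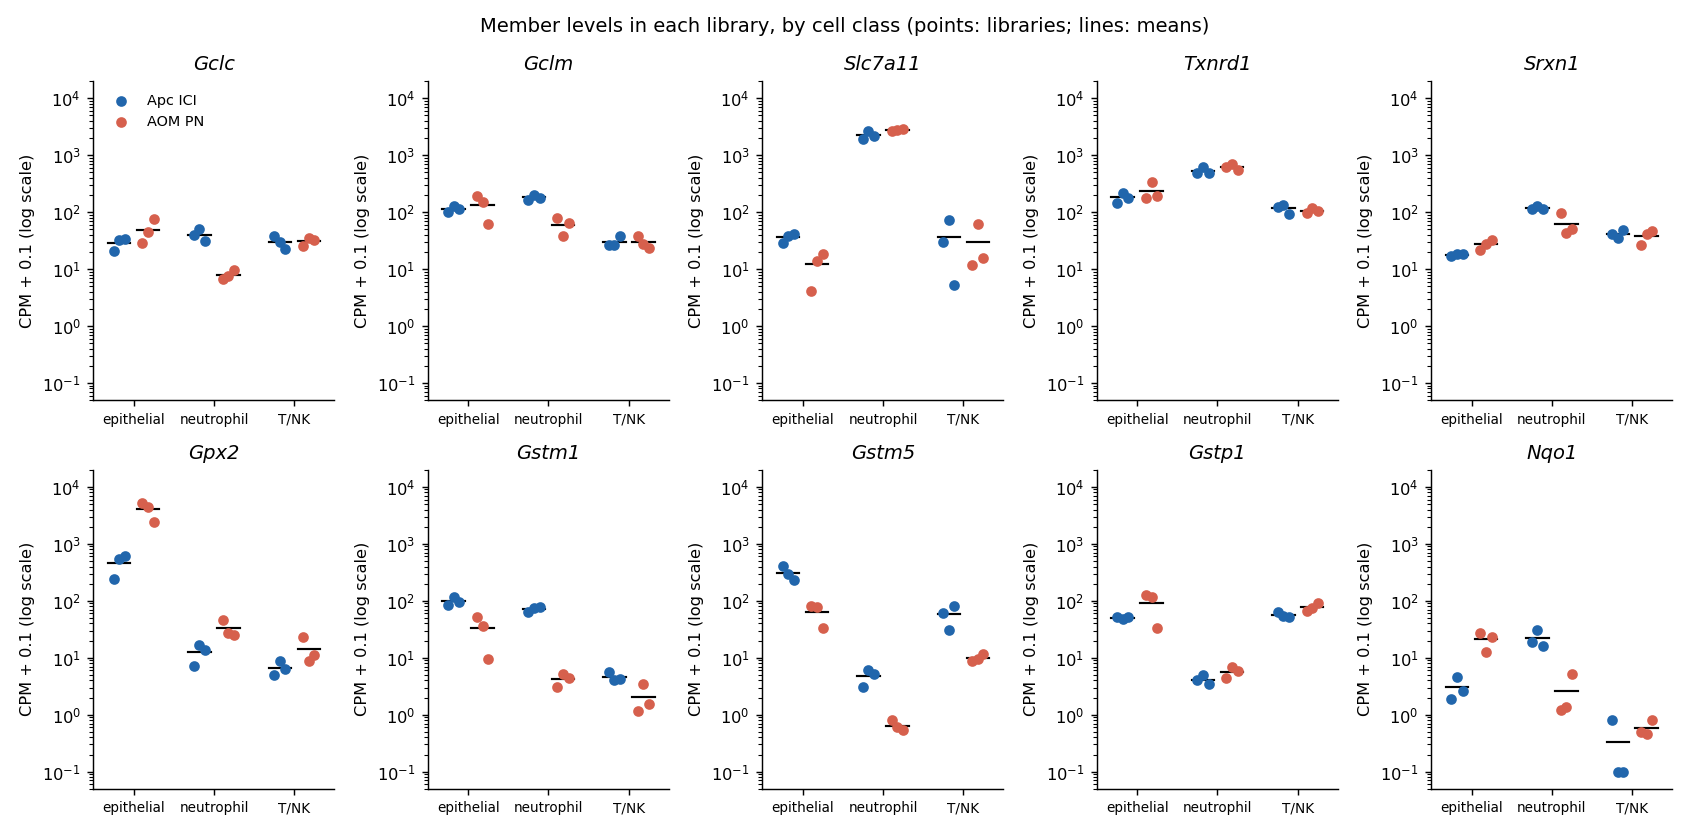
CPM of each of the 10 genes in epithelial-, neutrophil- and T/NK-like sums, plotted as CPM + 0.1 on a log axis; each point is a library and lines are group means of 3. Epithelial-like Gpx2 lies between 244 and 600 in Apc ICI and between 2396 and 5283 in AOM PN, while neutrophil-like Slc7a11 lies between 1953 and 2871 in all 6 libraries.

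Neutrophil-like levels of several members varied by cluster, and cluster 8 differed between the groups in its share of cells. This cluster, led by Ccl3, Cstb, Hmox1 (haem oxygenase 1, another known NRF2 target) and Ftl1 (ferritin light chain), held 34.9%, 29.9% and 28.2% of the neutrophil-like cells in Apc ICI against 0.771%, 1.21% and 1.04% in AOM PN. In Apc ICI, the summed cells of this cluster had 520 CPM of Gclm against 92.4 in all other neutrophil-like cells, 123 against 19.9 of Gclc and 311 against 71.8 of Srxn1. They had 76.1 against 8.02 CPM of Nqo1 and 246 against 12.7 of Gstm1. Slc7a11 went the other way, 2214 against 3299 CPM. The few AOM PN cells of the cluster had the same order for these genes except Slc7a11: 913 against 42.1 CPM for Gclm, 78.3 against 6.36 for Gclc, 272 against 49.4 for Srxn1, 23.8 against 1.93 for Nqo1, 74.9 against 3.24 for Gstm1 and 3310 against 2484 for Slc7a11. Inside the cluster Gclm was 416, 568 and 538 CPM in the Apc ICI libraries against 1440, 818 and 752 in those of AOM PN. Gstm1 there was 220, 241 and 305 CPM in Apc ICI against 0, 99.7 and 78.6 in AOM PN, where the cluster had 21, 45 and 34 cells. These cluster values are a description, since the clusters were made from the same cells.

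With this cluster left out of the neutrophil-like sums, a step chosen after seeing the data, 2 of the 10 genes were called, against 2.95% of 8886 genes. Gstm1 fell by 1.62 (adjusted p = 0.0303) in place of 4.11, and Gstm5 fell by 3.49 (adjusted p = 0.00209). Neutrophil-like Gstm5, with the cluster kept, was at about the level that the epithelial share would give, as stated above. Gclc was at -1.35 (adjusted p = 0.0592), Gclm at -0.78 (0.149), Nqo1 at -1.61 (0.165), Srxn1 at -0.22 (0.708) and Gpx2 at 1.11 (0.111).

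**Figure D3:**
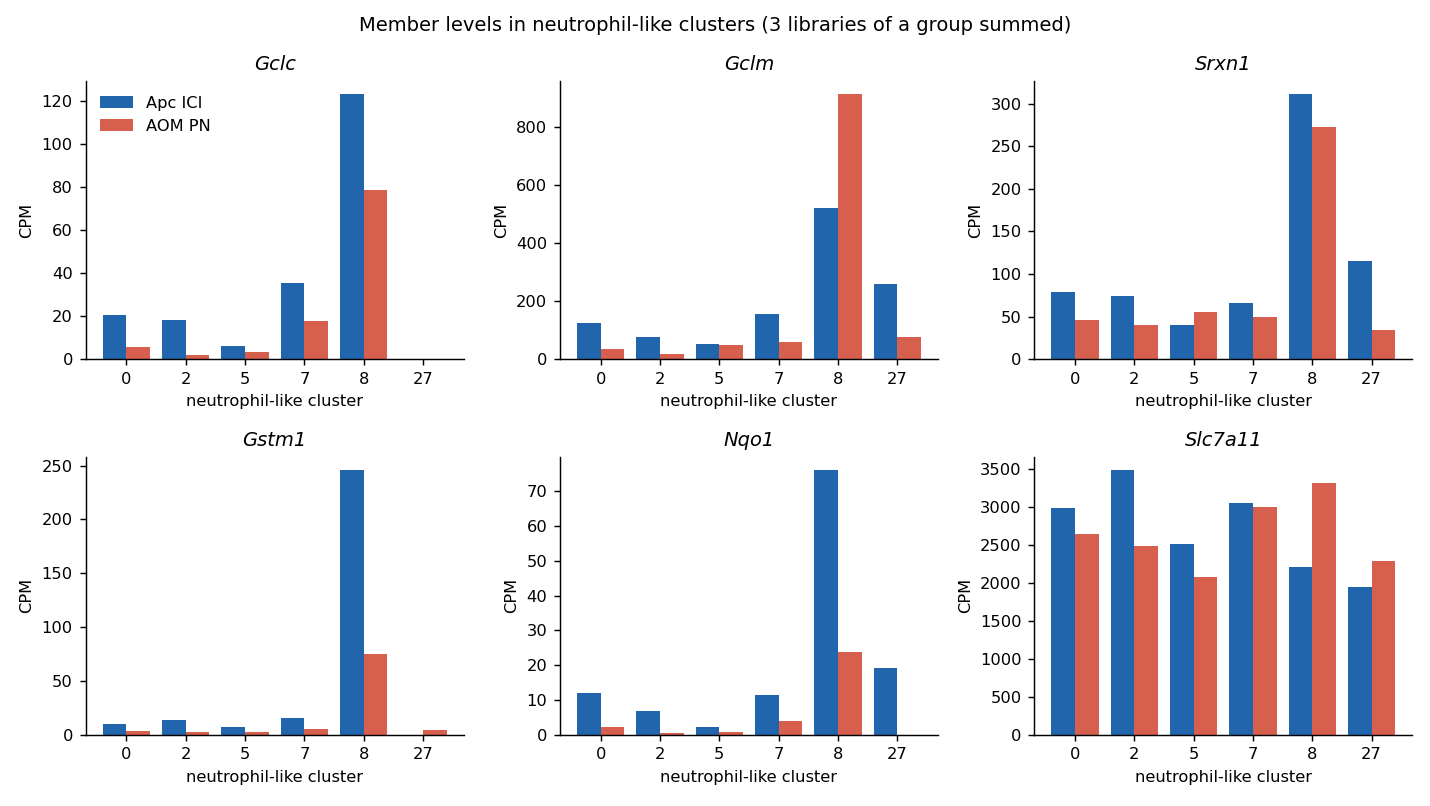
Summed CPM of Gclc, Gclm, Srxn1, Gstm1, Nqo1 and Slc7a11 in the 6 neutrophil-like clusters, with bars for each group's pooled cells and no error. In the cluster led by Ccl3, Cstb and Hmox1 Apc ICI cells reached 520 CPM of Gclm and 246 of Gstm1, while Slc7a11 was 2214.

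Epithelial-like sub-clusters varied in the same genes, again as a description of sub-clusters made from these cells and pooled over libraries. Gpx2 was among the leading genes of sub-clusters 3 (with Pyy and Reg3b), 9 (with histone genes and Top2a) and 14 (with Krt19 and Lgals4), at 5437, 5264 and 2967 CPM, and stood at 145 CPM in sub-cluster 2 (Prox1, Axin2). Sub-cluster 13, with the goblet and Paneth cell genes Muc2, Spink4 and Lyz1, had 1570. In sub-cluster 3 the libraries with at least 20 cells gave 4633 CPM in Apc ICI 3 and 4979, 6041 and 6642 in AOM PN 1, 2 and 3. In sub-cluster 14 Gpx2 was 2302 and 1353 CPM in Apc ICI 2 and 3 against 3974 in AOM PN 2. In the 3 sub-clusters with at least 20 cells of each group, Nqo1 was 12.2 CPM in Apc ICI against 16.8 in AOM PN (sub-cluster 3, on 2 and 17 UMIs), 10.9 against 13.4 (sub-cluster 14, on 14 and 21) and 2.86 against 20.4 (sub-cluster 2, on 5 and 1). Sub-cluster 3 had 67 Apc ICI cells and 334 AOM PN cells, and the part of these cell numbers in the Nqo1 change was not tested. Txnrd1 and Srxn1 were highest in sub-cluster 15 (Saa1, Lypd8, Krt20), at 1210 and 110 CPM over 77 cells. Gclm, Gclc and Slc7a11 were at 209, 93.6 and 80.4 CPM in sub-cluster 11, led by the keratin Krt17 and Sprr1a. Gstm5 reached 545 CPM in sub-cluster 5 (Ptn, Wif1, Mt3), which had 325 Apc ICI cells and 0 AOM PN cells. In the sub-clusters with at least 20 cells of each group, Gstm5 was 73.2 CPM in Apc ICI against 71.2 in AOM PN (sub-cluster 3). It was 75.5 against 78.9 in sub-cluster 14 and 151 against 102 in sub-cluster 2, there on 264 and 5 UMIs. Gstp1 was 54.9 against 125, 53.7 against 124 and 14.9 against 0 in the same order. The part of the sub-cluster shares in these changes was not tested. Gstm1 reached 264 CPM in sub-cluster 8 (Hes6, S100g).

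**Figure D4:**
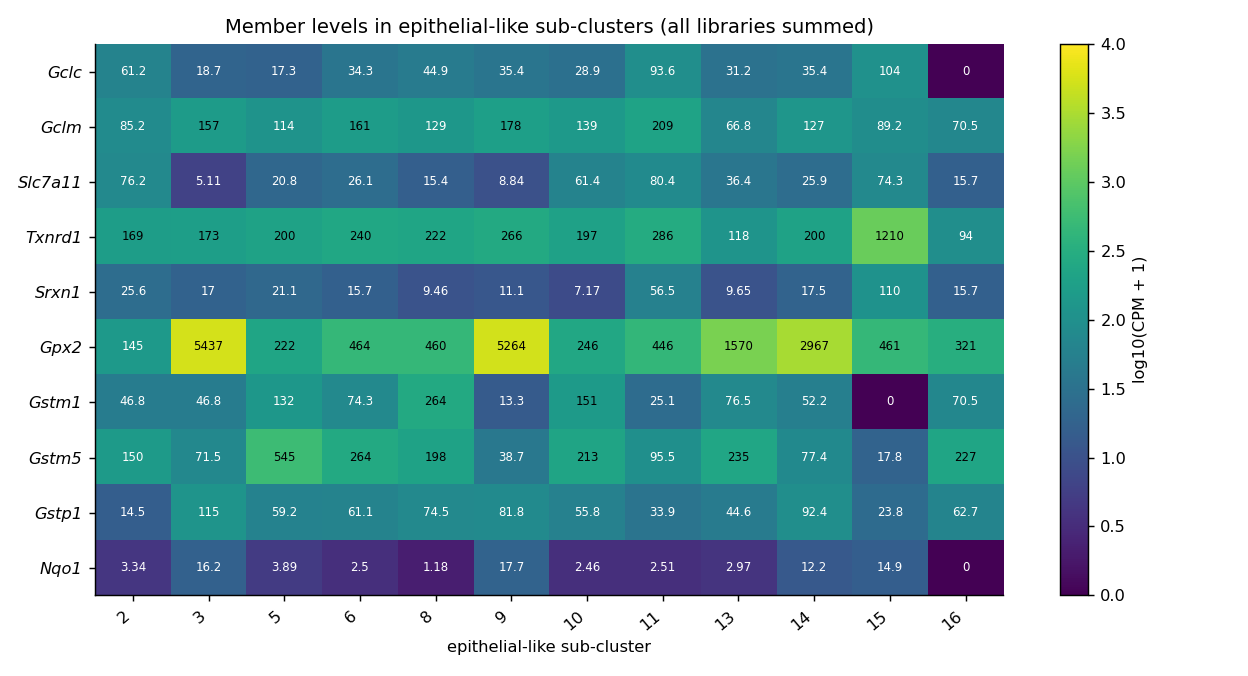
Heat map of the 10 genes (CPM) over the 12 epithelial-like sub-clusters, cells pooled over libraries. Gpx2 is at 5437 and 5264 CPM in sub-clusters 3 and 9 and 145 in sub-cluster 2, and Gstm5 is at 545 in sub-cluster 5.

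Across 8 classes, put on 1 scale with haemoglobin left out, Gclm stood apart in erythroid-like cells at 6154 CPM on average (2972 to 8883 over libraries), above every library of the next class. Leaving haemoglobin out raises the erythroid-like levels of all genes. With haemoglobin counted, Gclm made up 1956 of 13729266 erythroid-like UMIs in Apc ICI 1, beside 1200 of 5764115 neutrophil-like UMIs. In AOM PN 1 it made up 1683 of 7816818 beside 564 of 9786114. The erythroid-like lead over neutrophil-like cells was then lost in the former library and kept in the latter. A further named class, plasma-like, had enough cells in 1 library alone and was left out of these orders; its Gstp1 stood at 65.6 CPM. Gstm5 was also highest in erythroid-like cells, at 510 CPM (324 to 931). Slc7a11 was highest in neutrophil-like cells at 4391 CPM (3256 to 5218), above the 491 of monocyte/macrophage-like cells, and so was Txnrd1 at 1005 CPM (803 to 1270) against 405. Gpx2 was highest in epithelial-like cells at 1294 CPM, with libraries from 151 to 2916, followed by 246 in erythroid-like cells. Srxn1 and Gstm1 had their highest means in neutrophil-like cells, at 155 and 64.3 CPM, and Gclc in dendritic-like cells at 54.0. These means pool the 2 groups, and the order differed within them. In AOM PN alone neutrophil-like Gstm1, at 7.39 CPM, was below monocyte/macrophage-like (37.9), mast-like (20.3), epithelial-like (18.7) and erythroid-like cells (8.96). In Apc ICI alone Gclc was higher in neutrophil-like (67.4) than in dendritic-like cells (57.9). Nqo1 was at 68.8 CPM in erythroid-like and 20.6 in neutrophil-like cells, and Gstp1 at 56.7 in erythroid-like and 48.4 in T/NK-like cells. In AOM PN alone Nqo1 was higher in epithelial-like (11.9) than in neutrophil-like cells (4.46), and Gstp1 was higher in T/NK-like (56.8) than in erythroid-like cells (47.1). Of the 70 pairs of neighbours in these orders, 9 had library ranges that did not overlap, so most neighbouring classes could not be put in order beyond their spread. Outside the 3 main classes, monocyte/macrophage-like Gstp1 was 18.8, 22.2 and 20.6 CPM in Apc ICI against 38.4, 49.5 and 42.4 in AOM PN, and B-like Gstp1 was 9.48, 12.3 and 5.71 against 51.1, 35.2 and 30.9. Erythroid-like Gstm5 overlapped between groups, at 560, 324 and 931 CPM against 447, 452 and 344. These other classes were not tested.

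**Figure D5:**
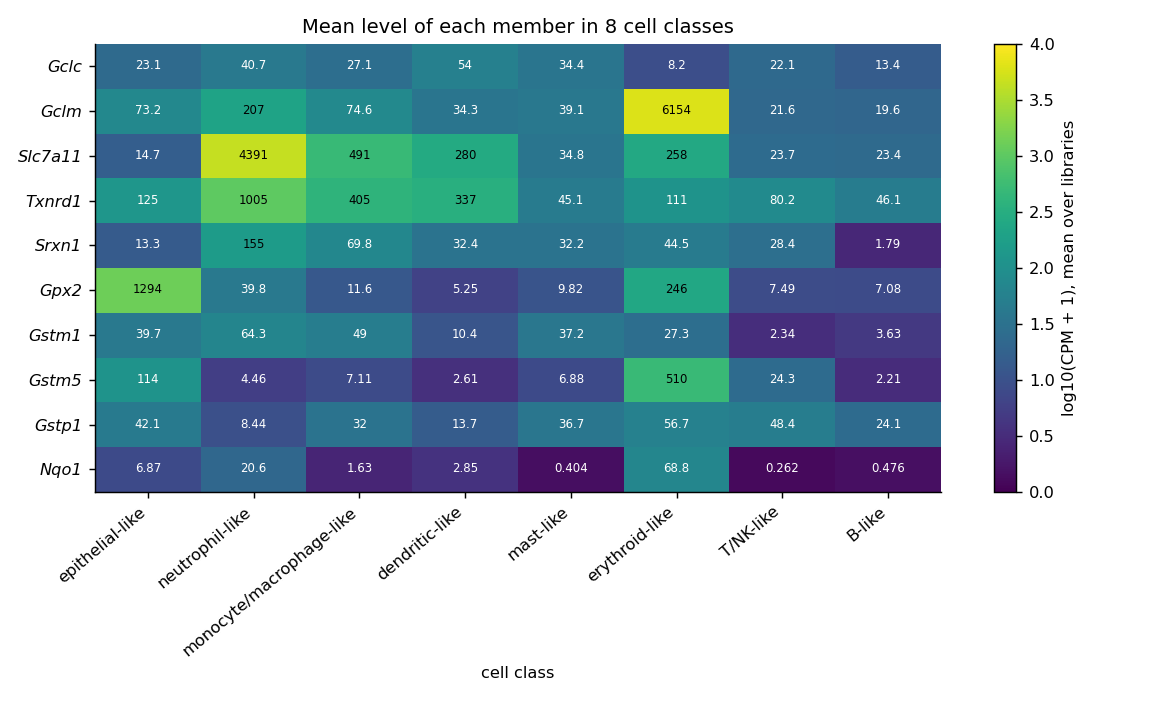
Heat map of the mean CPM of the 10 genes in 8 cell classes on 1 scale with haemoglobin left out, coloured by log10(CPM + 1). Gclm is at 6154 in erythroid-like cells, Slc7a11 at 4391 in neutrophil-like cells and Gpx2 at 1294 in epithelial-like cells.

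The genes whose levels ran most like each member were taken by Pearson's r over 47 sums of a library and class, among 7177 genes. These sums share libraries and free RNA, so the values are descriptive. Gpx2 ran most like the epithelial genes Lgals4 (r = 0.960), Phgr1 (0.919) and Cldn7 (0.918). Slc7a11 ran most like Msrb1 (0.940), Csf2ra (0.939) and Il1rn (0.932), and Txnrd1 like Snx10 (0.943), S100a11 (0.931) and Tnfrsf1a (0.923). Gclm ran close to Carhsp1 (0.954) and Eif5 (0.944). The nearest genes were Carhsp1 (0.830), Lars2 (0.829) and Gm42418 (0.822) for Nqo1 and Fbxo6 (0.861), Cacul1 (0.836) and Mbtd1 (0.836) for Gclc. For Srxn1 they were Plin2 (0.857), Arrdc4 (0.848) and the glutathione reductase Gsr (0.847). Gstm5 was nearest to Skp1a (0.854), Glo1 (0.838) and Mettl27 (0.830), Gstp1 to Aamdc (0.794), Ndufb2 (0.788) and Nudt5 (0.787), and Gstm1 to Tns3 (0.743), Stx3 (0.736) and Zfp503 (0.726). Among the members themselves the closest pairs were Nqo1 with Gclm (0.875) and Txnrd1 with Slc7a11 (0.870).

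The regulators and the rest of the pathway were read from 8 lists of 91 genes in all. Nfe2l2 itself was higher in AOM PN in neutrophil-like cells, at 902, 948 and 814 CPM against 1285, 1442 and 1271 (log2 0.59, SE 0.16, adjusted p = 0.0251). Keap1, its repressor, was lower, at 7.72, 11.1 and 7.91 CPM against 3.09, 2.85 and 4.34 (log2 -1.40, SE 0.26, adjusted p = 0.00529). T/NK-like Nfe2l2 was also higher, at 54.6, 71.7 and 53.8 CPM against 97.2, 110 and 88.1 (log2 0.71, SE 0.15, adjusted p = 0.0425), and was the only pathway gene called there, of 58 tested. The neutrophil-like Nfe2l2 call was lost after thinning (adjusted p = 0.0583) and with the replicate number as a block (0.0691). It was also lost without any 1 library other than AOM PN 1 and 3. With the Hmox1 cluster left out, neutrophil-like Nfe2l2 was at 0.16 (adjusted p = 0.666) and Keap1 at -0.87 (0.1485). The T/NK-like Nfe2l2 call was lost after thinning (0.190) and with shallow clusters counted (0.104). Leaving out any 1 library other than Apc ICI 2 and AOM PN 3 also ended it. Epithelial-like Nfe2l2 was at 139, 134 and 108 CPM against 104, 97.5 and 69.8 without overlap and was not called (log2 -0.45, adjusted p = 0.298), and Keap1 was at 0.10 (adjusted p = 0.823). These are mRNA levels, while NRF2 is controlled mainly through its protein.

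In epithelial-like cells 16 of the 80 pathway genes tested were higher and 7 lower in AOM PN, against 8.24% and 9.85% of all genes. The NADPH suppliers were 3 higher and 0 lower of 6: Me1 (malic enzyme, log2 3.42), Idh1 (isocitrate dehydrogenase, 2.69) and Pgd (phosphogluconate dehydrogenase, 1.17). In glutathione synthesis and recycling 2 of 10 were higher, Cbs (cystathionine synthase, 2.72) and Gss (glutathione synthetase, 1.34), and Glrx (glutaredoxin) was lower (-0.88). Thioredoxin genes were 2 higher of 11, Txnip (1.08) and Prdx6 (1.02), and the secreted peroxidase Gpx3 rose by 3.80, the 1 peroxidase called of 3. Transferases moved both ways, 5 higher and 2 lower of 19, with Gstp3 (3.75), Gsta1 (3.23) and Gstt3 (1.54) up and the mu-class Gstm7 (-3.56) and Gstm6 (-2.20) down beside Gstm1 and Gstm5. Of other detoxification genes and exporters 3 were higher, Sult1a1 (3.38), Cbr3 (3.10) and Abcc3 (1.93), and 2 lower, Abcc2 (-3.69) and Abcc4 (-1.72), of 16. Among 10 regulators the small MAF Mafg (-1.62) and the repressor Bach2 were lower and none higher. Bach2 was at 12.9, 8.15 and 9.65 CPM in Apc ICI against 0, 0.397 and 0, a single UMI, in AOM PN. None of 5 other antioxidant genes was called. Of the genes named here, 11 were no longer called without AOM PN 2. Without any 1 of AOM PN 1 and the 3 Apc ICI libraries, 6 were no longer called. With shallow clusters counted 4 lost the call, and with the replicate number as a block 5. Thinned cells held enough counts for 13 of 23 results, Nfe2l2 and Keap1 among the 23, and 2 of the 13 lost the call.

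In neutrophil-like cells 8 of 57 pathway genes were higher and 14 lower, against 14.9% and 17.6% of all genes. Of 10 other detoxification and efflux genes 5 were lower and 0 higher, among them Hmox1 (-2.58), Blvrb (biliverdin reductase, -2.05) and Akr1a1 (-1.72). Hmox1 was at 552, 1074 and 552 CPM in Apc ICI against 161, 124 and 78.9 in AOM PN. Of 5 other antioxidant genes Cat (catalase, -1.78) and Ftl1 (-1.66) were lower and Sod2 (0.76) was higher. Of 10 thioredoxin and peroxiredoxin genes Prdx1 (-2.80) and Prdx3 (-1.02) were among 3 that were lower, and Prdx5 (0.68) was higher. Of 9 regulators 3 were lower, Mafg (-1.17), the autophagy receptor Sqstm1 (-0.92) and Keap1, and 2 higher, Cul3 (0.49) and Nfe2l2. The NADPH suppliers Idh1 (0.79) and G6pdx (0.68) were higher, 2 of 5, as were Gpx1 (1.39), 1 of 2 peroxidases, and the glutathione reductase Gsr (0.77), 1 of 8 genes of glutathione synthesis and recycling. Of 8 other transferases 1 was lower. With the Hmox1 cluster left out, 15 of these 18 named pathway genes, Nfe2l2 and Keap1 among the 18, were no longer called, all but Prdx1, Hmox1 and Mafg. Leaving out any 1 library ended the call of 1 to 5 of the 18, thinning of 4 and the replicate number as a block of 5.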

How the data were processed

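For each of 6 libraries the authors deposited a matrix of raw UMI counts, made with Cell Ranger 6.1.2 against mm10, per the submitters' processing notes; settings and gene annotation are not given in the sources used here. Kept barcodes had 200 or more genes and a mitochondrial share no higher than 20%. Doublets were scored within each library against simulated doublets and removed at 0.8% per 1000 barcodes, 5.50% to 12.9% of barcodes. This left 4726, 6804 and 4905 cells in Apc ICI 1 to 3 and 10168, 8060 and 11399 in AOM PN 1 to 3. Cells were clustered (2000 variable genes, 30 principal components, 20 neighbours, Leiden resolution 1; scanpy 1.11.5, leidenalg 0.10.2, Python 3.11.15), and epithelial clusters again, without batch correction. A cluster was named from at least 3 detected markers. Clusters under 1/3 of their libraries' median depth with no marker among their 10 leading genes stayed unnamed, and the names are rebuilt here.

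Counts were summed per library and class (at least 20 cells) and tested with edgeR 4.0.16 (quasi-likelihood test, TMM, filterByExpr, Benjamini-Hochberg, threshold 0.05; R 4.3.3) on all genes. Differences between classes used the class-by-group term with the library as a block. DESeq2 1.42.0, other scalings, filters, thinning, kept doublets and left-out libraries were alternatives. On simulated counts edgeR recovered 24%, 48% and 65% of 2-fold and 84%, 99% and 99.0% of 4-fold changes in epithelial-like (11517 genes), neutrophil-like (9471) and T/NK-like sums (10338), and 7.69%, 5.77% and 3.57% of calls were false. The simulation gave all genes 1 common spread and changed only genes with an expected mean of at least 20 UMIs per library. These rates need not hold for genes with fewer UMIs or a wider spread. Free RNA from another class was gauged as that class's summed marker level in the receiving class, as a percent of its own. The thinned shares carry counting error besides the spread between libraries.

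The named genes were all members, Nfe2l2 and Keap1 in the 3 classes, and of each pathway list up to 3 genes per class and direction, by largest change among those called, not overlapping between groups and with a mean of at least 5 CPM in a group. Nearest genes were the 3 with the highest r, and 1 of them is not reported here. The members and lists were chosen with earlier results of these data known.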

Additional observations from a re-analysis of the deposited data

Results flagged for a closer look

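The changes of several members between AOM PN and Apc ICI differed from class to class by edgeR's quasi-likelihood test of the class-by-group term (log2 units, Benjamini-Hochberg adjusted). Nqo1 stood furthest apart: its epithelial-like change exceeded its neutrophil-like change by 5.99 (SE 0.53, adjusted p = 1.04e-06), with every AOM PN library above every Apc ICI library in the first class and below in the second. Against T/NK-like cells, where Nqo1 had 13 UMIs in all, the neutrophil-like change differed by -3.51 (SE 0.94, adjusted p = 0.0258), a call lost without AOM PN 1 (adjusted p = 0.0550) or Apc ICI 2 (0.107). Nqo1 did not pass the filter on low counts in T/NK-like cells and entered this joint fit only through its neutrophil-like counts. Its T/NK-like change is thus not measured, and no difference between these 2 classes can be read from this value. It is among the 4 members counted below for this difference.

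For glutamate-cysteine ligase, the epithelial-like minus neutrophil-like difference was 2.75 for Gclc (SE 0.42, adjusted p = 0.000393) and 1.60 for Gclm (SE 0.46, adjusted p = 0.0326). The Gclm difference was lost after thinning (adjusted p = 0.124), with shallow clusters counted (0.0966) and without any 1 library other than AOM PN 3, up to an adjusted p of 0.241. The neutrophil-like minus T/NK-like difference was -2.40 for Gclc (SE 0.26, adjusted p = 0.000158) and -1.65 for Gclm (SE 0.28, adjusted p = 0.00307).

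Gstm1 fell further in neutrophil-like cells than in the others, with an epithelial-like minus neutrophil-like difference of 2.34 (SE 0.50, adjusted p = 0.00589) and a neutrophil-like minus T/NK-like difference of -2.76 (SE 0.41, adjusted p = 0.00140). Slc7a11 had an epithelial-like minus neutrophil-like difference of -2.30 (SE 0.53, adjusted p = 0.00994), not called after thinning (0.155), with doublets kept (0.0746) or without AOM PN 1 (0.0756) or AOM PN 2 (0.0572). Gpx2 rose more in epithelial-like than in neutrophil-like cells, by 1.45 (SE 0.42, adjusted p = 0.0327), and more than in T/NK-like cells, by 2.10 (SE 0.55, adjusted p = 0.0308). Neither Gpx2 difference was called after thinning (adjusted p = 0.215 and 0.385), with shallow clusters counted (0.229 and 0.105) or without any 1 of AOM PN 2 and the 3 Apc ICI libraries. The first was also lost without AOM PN 1 (0.0519) and the second with doublets kept (0.0620).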

How the results depend on the processing

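Leaving out 1 library at a time gave 3 to 6 called members in epithelial-like cells, 6 to 7 in neutrophil-like and 0 to 1 in T/NK-like cells, and 664 to 3477, 1485 to 2938 and 5 to 409 called genes. For the differences it gave 3 to 7 members and 437 to 2637 genes (epithelial-like minus neutrophil-like), 0 to 2 and 235 to 1009 (epithelial-like minus T/NK-like) and 3 to 4 and 569 to 1609 (neutrophil-like minus T/NK-like), against 6 and 1211, 1 and 590, and 4 and 1664 with all libraries. Without AOM PN 2, 664 epithelial-like genes were called, and without AOM PN 3, 3477.

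Thinning cells to 1500 UMIs left 3 members and 529 genes in epithelial-like cells, 1929 genes in neutrophil-like and 134 in T/NK-like cells, and 3 members and 460 genes, 0 and 155, and 652 genes for the 3 differences in that order. Keeping doublets gave 6026 epithelial-like and 666 T/NK-like genes, and 2777 and then 1797 genes with 2 members for the first 2 differences. Counting shallow clusters, an alternative chosen after seeing the data, gave 3143, 525 and, for epithelial-like minus T/NK-like, 1188 genes with 0 members. Leaving out the neutrophil cluster with Hmox1, also chosen after seeing the data, gave 2 members and 262 genes. Without the low-count filter T/NK-like cells had 2 members and 921 genes called and epithelial-like minus T/NK-like 2 members, and DESeq2 called 521 T/NK-like genes.

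The sign changed only for values that did not pass the test. Epithelial-like Gclm was -0.24 and Keap1 -0.027 with shallow clusters counted, and Gclm ran from -0.0079 to 0.56 without 1 library. Neutrophil-like Slc7a11 was -0.12 without the Hmox1 cluster. In T/NK-like cells Gclm was -0.23 and Gclc 0.22 in cells without a UMI of Epcam, Krt8, Krt18 or Krt19. After thinning Gclc was 0.23, Srxn1 0.13 and Keap1 -0.20, without the filter Gclc was 0.019, and with doublets Txnrd1 was 0.12 and Slc7a11 1.17. Without 1 library T/NK-like Gclm ran from -0.21 to 0.19, Gclc from -0.15 to 0.20, Srxn1 from -0.29 to 0.10 and Slc7a11 from -1.44 to 0.47. The cause of these shifts was not tested.

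The replicate numbers did not pair the libraries: deviations of same-numbered libraries correlated at -0.21, 0.13 and -0.18 in epithelial-like, -0.25, 0.10 and -0.20 in neutrophil-like and -0.14, 0.13 and 0.03 in T/NK-like sums. With the replicate number as a block, 5, 7 and 1 members and 1533, 2343 and 199 genes were called. Depth limits Nqo1, with 56 epithelial-like UMIs in AOM PN, and Slc7a11, with 42.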
